A study of Homo sapiens with 8 samples.

Results

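The integrin subunits were examined in the RNA sequencing of HepG2 cells, a human hepatocellular carcinoma line, that overexpressed the cytochrome P450 enzyme CYP2C19. The set holds 10 of the 60230 genes of the count table: the alpha chains ITGA1, ITGA2, ITGA3, ITGA5, ITGA6 and ITGAV, the beta chains ITGB1, ITGB4 and ITGB5, and ITGB1P1, a processed pseudogene of ITGB1. They were chosen by symbol as the integrins of epithelial cells, with their log2-fold changes against DMSO in these libraries already known, so these differences from DMSO, and which of them passed a threshold over all genes, are given as a description that supports nothing, and no p-value of a member is printed.

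The study asked how antioxidants used in plastics, found by screening against CYP2C19, alter gene expression in liver cells that carry this enzyme. All 4 groups were the same CYP2C19-overexpressing HepG2 line in blasticidin-containing medium, and they differed in what was added: DMSO alone, compound 4 (metylcresol in the library labels), compound 5 (tetrabut) or compound 6 (cyclohexil). The 3 compounds are bisphenol antioxidants, with a tert-butyl and a methyl group on each ring in compound 4, only tert-butyl groups in compound 5, and a cyclohexyl and a methyl group in compound 6. Each compound was given at its own IC50, so the doses were similar but not the same, and the compounds are set side by side rather than tested against each other. Each group had 2 libraries, labelled day 1 and day 2 and here called replicates 1 and 2. No source used here says whether they came from separate cultures, so their spread may be technical. The labels name replicate 1 of DMSO and replicate 1 of compound 4 as merged libraries.

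Integrins are receptors that join 1 alpha and 1 beta chain at the cell surface, bind matrix proteins outside the cell and connect to the actin or keratin cytoskeleton inside it. The beta chain ITGB1 pairs with many alpha chains: with ITGA1 and ITGA2 it binds collagens, with ITGA3 and ITGA6 it binds laminins, and with ITGA5 it binds fibronectin. ITGB4 pairs with ITGA6 in hemidesmosomes, and ITGB5 pairs with ITGAV, a receptor for vitronectin and other proteins with an RGD motif. Hepatocytes in the liver are known for ITGA1 and ITGA5 with ITGB1, while ITGA6 is known from hepatoma lines.

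The libraries held between 9791659 and 17814595 counts. Levels are given as CPM, counts scaled to library size after TMM normalization, and changes as log2-fold changes with their standard error (SE) from 1 edgeR fit of all 8 libraries, in which 13400 genes were tested. All 8 hepatocyte markers were detected, with a summed level of 41912 to 44147 CPM in the DMSO libraries and of 28021 to 36810 CPM in the libraries of the 3 compounds. Of the fibroblast and stellate cell markers, DCN, LUM and PDGFRA were at 0 in every library. The list summed to 18.5 to 23.9 CPM in DMSO, 34.7 to 34.8 with compound 4, 15.3 to 17.9 with compound 5 and 23.2 to 28.4 with compound 6. Its members went both ways. The mean of PDGFRB was 7.07 CPM in DMSO and 24.2, 9.49 and 14.5 CPM with compounds 4, 5 and 6. That of ACTA2 was 13.4 CPM in DMSO and 9.94, 6.63 and 10.2 CPM. Of the endothelial markers, KDR, TEK, CLDN5 and EMCN were at 0 throughout, and the list summed to at most 2.08 CPM. PTPRC, CD3E, TYROBP and CSF1R, of the leukocyte list, were at 0 as well, and its sum of 1420 to 2189 CPM was nearly all LYZ. The part of these marker levels in the integrin results was not tested. In RNA of a whole culture, a change in the share of cells that carry a transcript and a change in its amount per cell cannot be told apart.

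Of the 10 genes, 7 were well expressed in every library, with ITGB1, ITGA6 and ITGB5 at the top of the raw CPM order in DMSO and ITGB4 at the bottom. ITGA3 and ITGA5 were nearly silent and were not tested. Counts of ITGA3, which lies at chr17:50055968-50090481 (GRCh38, as all positions here, with gene bounds from GENCODE 29), were 7 and 3 in DMSO, 5 and 10 with compound 4, 1 and 3 with compound 5, and 3 and 6 with compound 6. ITGA5, at chr12:54395261-54419460, had 2 counts in DMSO replicate 1, 1 count in compound 4 replicate 1, and 0 in the other 6 libraries. The fibronectin receptor chain was close to the limit of detection in this line. At this depth neither gene could be tested, so nothing is said of a difference between groups. Both compound 5 libraries of ITGA3 lay below both DMSO libraries (0.0823 and 0.171 against 0.717 and 0.251 CPM), at a few counts each. ITGB1P1 had counts in 5 libraries and passed the filter on low counts only through compound-treated ones.

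**Figure D1:**
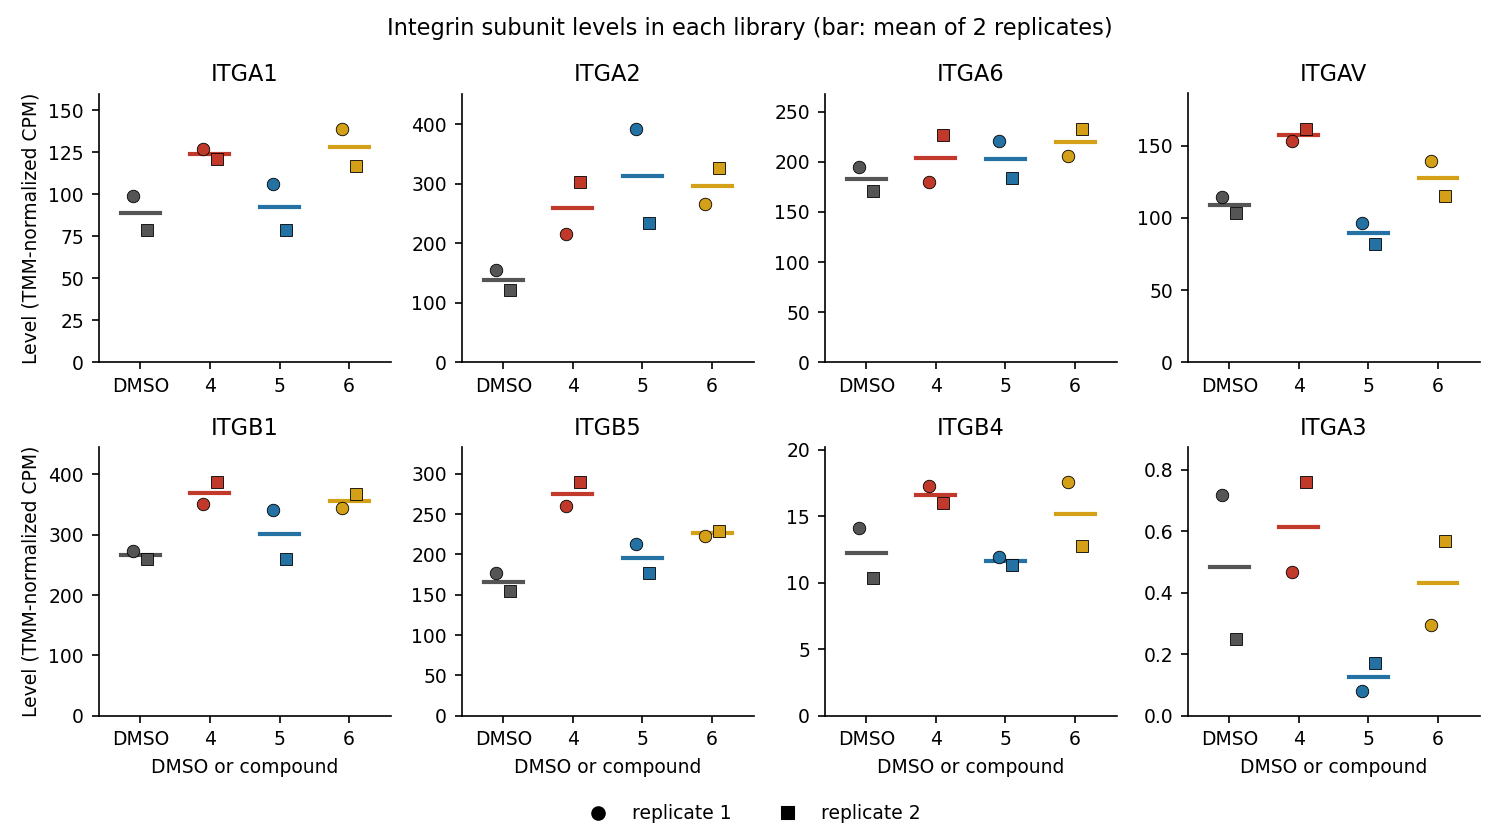
Level of 8 integrin subunit genes in each library. The y axis is TMM-normalized CPM from 0, the x axis gives DMSO or the compound number, circles are replicate 1, squares are replicate 2, and bars are means of 2 libraries. ITGA2 lies at 122 to 155 CPM in DMSO and at 215 CPM or more in every compound library, and ITGAV lies above DMSO with compound 4 and below it with compound 5.

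Past the threshold of an adjusted p of 0.05 over all 13400 genes, edgeR called 3 of the 8 tested members higher with compound 4 (ITGA2, ITGAV and ITGB5) and 2 higher with compound 5 (ITGA2 and ITGB1P1), and none lower with any compound. ITGB1P1 was at 0 in both DMSO libraries and passed the filter through the libraries where it was high, so its call is no evidence of a difference. DESeq2 also called 3 with compound 4, but ITGAV, ITGB1 and ITGB5, and with RLE factors edgeR called ITGAV and ITGB5 alone. Over all genes, 9.51% were called with compound 4, of which 5.6% of all tested were higher, and 8.3% with compound 5, with 5.35% higher. Genes called lower made up 3.91% with compound 4, 2.95% with compound 5 and 0.0821% with compound 6. With compound 6, where 0.575% of all genes were called, edgeR called 0 of the 8, although 5 of them had an unadjusted p under 0.05, as did 18.6% of all genes, and DESeq2 called 1, ITGA2. These contrasts were known when the genes were chosen, so nothing is read from the counts. In the edgeR fit ITGA2 was the only member called under more than 1 compound, and 4 of the 8 were called under none. With the replicate number as a block, 5 were called with compound 4: ITGA1, ITGAV, ITGB1, ITGB1P1 and ITGB5, with ITGA2 lost. The calls rest on few libraries: leaving out DMSO replicate 2 left 0 called under each compound, as did leaving out compound 4 replicate 2 or compound 5 replicate 1 for their own comparisons. Without DMSO replicate 1, 1 member (ITGB5) was called with compound 4 and 0 with compound 5. Without compound 4 replicate 1 the count was 2 (ITGA2 and ITGB5), and without compound 5 replicate 2 it was 1 (ITGA2).

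ITGA2, the alpha chain of a major collagen receptor, at chr5:52989326-53094779, had the widest range of group means in CPM of all members. Its level was 155 and 122 CPM in the DMSO libraries, 215 and 302 CPM with compound 4, 393 and 233 CPM with compound 5, and 266 and 326 CPM with compound 6. All 6 compound libraries lay above both DMSO libraries, and within each treated group the libraries differed widely. The fitted log2-fold changes were 0.91 ± 0.25 (SE, n = 2 against 2) with compound 4, 1.18 ± 0.25 with compound 5 and 1.10 ± 0.25 with compound 6, or 1.87-fold, 2.26-fold and 2.14-fold. Taken by replicate number, the log2 ratio to DMSO with compound 4 was 0.48 for replicate 1 and 1.31 for replicate 2. With compound 5 it was 1.34 and 0.94, and with compound 6 it was 0.78 and 1.42. The size of the ITGA2 ratio thus varied between single libraries. Its direction was the same in all 6 because every compound library lay above both DMSO libraries, so it adds nothing to that. These 3 changes share the same DMSO libraries and are not independent of one another.

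ITGA1, the other collagen-binding alpha chain, lies upstream of ITGA2 on the same strand, at chr5:52787896-52959210. It stood at 98.9 and 78.6 CPM in DMSO, 127 and 121 CPM with compound 4, 106 and 79.0 CPM with compound 5, and 139 and 117 CPM with compound 6. Levels with compounds 4 and 6 lay above both DMSO libraries, and those with compound 5 overlapped them. The log2-fold changes were 0.48 ± 0.17, 0.06 ± 0.17 and 0.53 ± 0.17 in that order of compounds, none called. In every library ITGA2 exceeded ITGA1 per kilobase of transcript, by 2.12 to 2.14 times in DMSO, 2.32 and 3.41 times with compound 4, 5.05 and 4.04 times with compound 5, and 2.62 and 3.80 times with compound 6. This ratio of ITGA2 to ITGA1 was higher in all 6 compound libraries than in either DMSO library. The size of the ratio depends on the length used: per kilobase of coding sequence the DMSO means were 39.0 for ITGA2 and 25.1 for ITGA1. Part of the ITGA1 transcript overlaps exons of PELO on the same strand, which hold 445 of its 10727 windows of 31 bases, so some reads could be assigned to either gene. PELO itself stood at 39.0 ± 3.40 CPM (SD, n = 2) in DMSO and passed the threshold only with compound 5, at a log2-fold change of 0.55.

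ITGA6, the laminin-binding alpha chain, at chr2:172427354-172506282, was the most abundant alpha chain in DMSO and had the smallest ratio of highest to lowest group mean among the 7 expressed members, 1.20. Its level was 195 and 171 CPM in DMSO, 180 and 227 CPM with compound 4, 221 and 184 CPM with compound 5, and 206 and 233 CPM with compound 6. Only the compound 6 libraries lay above both DMSO libraries. The log2-fold changes were 0.15 ± 0.15, 0.15 ± 0.15 and 0.26 ± 0.15.

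ITGAV, the alpha chain of the vitronectin receptors, at chr2:186590065-186680901, was the tested member that lay above DMSO with one compound and below it with another. It stood at 114 and 104 CPM in DMSO, 153 and 162 CPM with compound 4, 96.6 and 82.2 CPM with compound 5, and 140 and 115 CPM with compound 6. Both compound 4 and both compound 6 libraries lay above DMSO, the latter by less than 1 CPM in the nearest pair, and both compound 5 libraries lay below it. The log2-fold changes were 0.53 ± 0.13 with compound 4, -0.29 ± 0.13 with compound 5 and 0.22 ± 0.13 with compound 6, of which the first was called. The difference between compounds 4 and 5 was not tested.

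Its partner ITGB5, at chr3:124761948-124901418, was the only beta chain called in the edgeR fit. The level was 177 and 155 CPM in DMSO, 260 and 290 CPM with compound 4, 214 and 177 CPM with compound 5, and 223 and 229 CPM with compound 6. Compounds 4 and 6 gave levels above both DMSO libraries, and with compound 5 one library did and the other was level with DMSO replicate 1. The log2-fold changes were 0.73 ± 0.12, 0.23 ± 0.12 and 0.45 ± 0.12, the first of them called and equal to 1.66-fold. Per kilobase of transcript, ITGB5 exceeded ITGAV by 2.49 and 2.41 times in DMSO, 2.73 and 2.88 times with compound 4, 3.56 and 3.46 times with compound 5, and 2.57 and 3.21 times with compound 6, above both DMSO libraries in each case.

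ITGB1, the common partner of the collagen-, laminin- and fibronectin-binding alpha chains, at chr10:32900319-33005792, had the highest mean CPM of the members in DMSO. Per kilobase of transcript it was highest in every group, but with compound 5 its mean CPM was below that of ITGA2 (300 against 313). ITGB1 stood at 274 and 260 CPM in DMSO, 350 and 387 CPM with compound 4, 341 and 259 CPM with compound 5, and 345 and 368 CPM with compound 6. Both libraries of compounds 4 and 6 lay above DMSO, while those of compound 5 lay on either side of it. The log2-fold changes were 0.47 ± 0.13, 0.17 ± 0.13 and 0.42 ± 0.13, or 1.38-fold, 1.13-fold and 1.34-fold. None was called in the edgeR fit, whereas with compound 4 DESeq2, the replicate block, the fit of only 4 libraries and both other filters on low counts called ITGB1.

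ITGB4, the hemidesmosome beta chain, at chr17:75721328-75757818, had 124 to 210 counts per library. Its level was 14.1 and 10.4 CPM in DMSO, 17.3 and 16.0 CPM with compound 4, 11.9 and 11.3 CPM with compound 5, and 17.6 and 12.8 CPM with compound 6. Only the compound 4 libraries were both above DMSO. The log2-fold changes of 0.44 ± 0.20, -0.07 ± 0.20 and 0.31 ± 0.20 were not called.

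**Figure D2:**
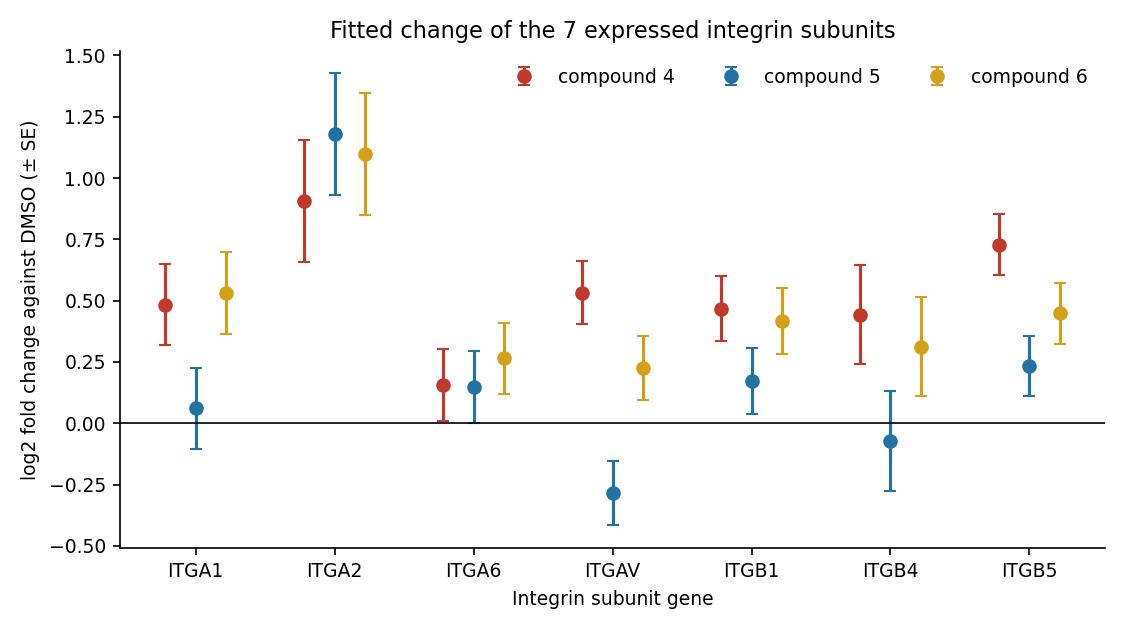
Fitted log2-fold change against DMSO of the 7 expressed integrin subunits. The y axis is the log2-fold change with its SE as bars, and the colours give the compound (2 libraries each against the same 2 DMSO libraries). ITGA2 lies between 0.91 and 1.18 for all 3 compounds, and ITGAV lies at 0.53 with compound 4 and at -0.29 with compound 5.

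Across the set, both libraries lay above both DMSO libraries for 7 of the 8 tested members with compound 4, 2 with compound 5 and 6 with compound 6. The 7 and the 2 include ITGB1P1, which was at 0 in DMSO and passed the filter through compound-treated libraries, so its place there was fixed beforehand. The corresponding shares of all genes tested were 30.4%, 31.0% and 29.3%. Both compound 5 libraries lay below DMSO for 1 member, ITGAV, and for 28.5% of all genes. Over the 8 libraries the levels of ITGB1 and ITGB5 ran most closely together (Pearson r = 0.94 on log2 CPM), followed by ITGA1 with ITGB4 (0.88). The r of ITGA2 with ITGA6 was 0.83, and with ITGAV it was 0.11. These values come from 4 groups of 2 libraries and describe only this set of libraries.

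Per kilobase of the longest coding transcript, which allows levels of different genes to be set beside each other, the DMSO order was ITGB1 at 70.5 ± 2.62 CPM per kilobase (SD, n = 2), ITGB5 at 37.9 ± 3.57, ITGA6 at 32.6 ± 3.10, ITGA2 at 17.6 ± 2.94, ITGAV at 15.5 ± 1.07, ITGA1 at 8.25 ± 1.33 and ITGB4 at 2.07 ± 0.449. Only the neighbours ITGA2 and ITGAV overlapped in their libraries. ITGA2 made up 24.6% and 22.8% of the summed alpha chains in the DMSO libraries. The share was 29.4% and 33.9% with compound 4, 44.2% and 36.4% with compound 5, and 32.7% and 37.6% with compound 6, in each case above both controls. On this scale ITGA2 passed ITGA6 only in compound 5 replicate 1, at 49.9 against 39.4 CPM per kilobase. That order depends on the length used. Without length scaling, ITGA2 exceeded ITGA6 in CPM in every compound library. Per kilobase of coding sequence the mean of ITGA2 was below that of ITGA6 in DMSO (39.0 against 54.0). It was above it with compound 4 (73.0 against 60.0), compound 5 (88.3 against 59.8) and compound 6 (83.6 against 64.8). ITGA6 exceeded ITGB4, its hemidesmosome partner, by 11.0 to 19.5 times over the libraries.

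**Figure D3:**
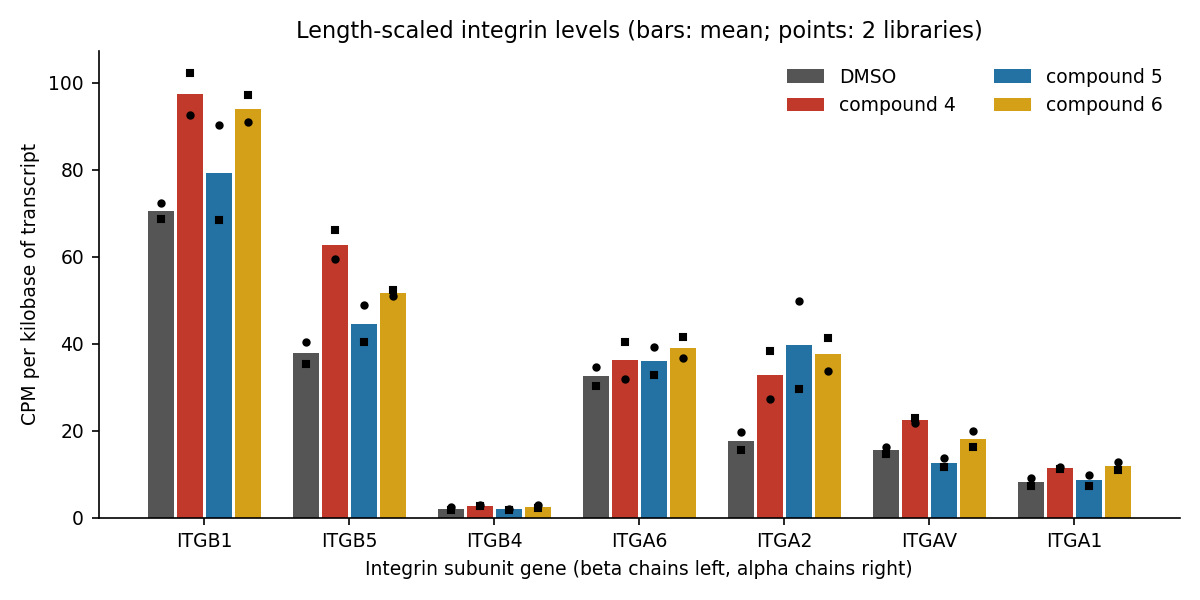
Length-scaled level of the beta chains (left) and alpha chains (right). The y axis is CPM per kilobase of transcript from 0, bars are group means, and points are the 2 libraries (circle for replicate 1, square for replicate 2). ITGB1 is highest in each group, at 70.5 CPM per kilobase in DMSO, and ITGA2 lies at 17.6 CPM per kilobase in DMSO and between 32.9 and 39.8 with the compounds.

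The pseudogene ITGB1P1 lies on chromosome 19 at chr19:14621634-14622242, on the minus strand, as a single stretch of 609 bases without introns. All 609 bases were identical to the spliced ITGB1 message, at positions 1851 to 2459 of a transcript of 3640 bases, across exons 13 to 16 of 16 and up to the last base before the stop codon. The match covers 25.4% of the ITGB1 coding sequence, and 2 of the 19 annotated ITGB1 transcripts contain it whole. The last 120 bases of both are printed because they carry the end of the ITGB1 reading frame and show that the genes cannot be told apart there (lower case throughout, since no base differs).
ITGB1P1: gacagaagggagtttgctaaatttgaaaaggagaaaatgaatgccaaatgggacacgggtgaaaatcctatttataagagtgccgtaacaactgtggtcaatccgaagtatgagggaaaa
ITGB1: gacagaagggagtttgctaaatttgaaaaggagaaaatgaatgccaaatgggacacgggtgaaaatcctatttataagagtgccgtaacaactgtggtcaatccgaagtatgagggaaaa
All 579 windows of 31 bases in ITGB1P1 occur in ITGB1, and they make up most of the 15.9% of ITGB1 windows found in another gene. A read lying wholly inside this stretch therefore fits both genes, and its assignment depends on how the quantification divided it.

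ITGB1P1 had 0 counts in both DMSO libraries, 44 and 28 with compound 4, 67 and 65 with compound 5, and 45 and 0 with compound 6. Both libraries of compounds 4 and 5 were above DMSO, and the compound 6 libraries disagreed with each other. In the same libraries ITGB1 had 2670 and 3100 counts in DMSO, 3731 and 5090 with compound 4, 4147 and 4560 with compound 5, and 3512 and 3880 with compound 6. As a share of the counts of both genes, ITGB1P1 took 1.17% (95% exact binomial interval 0.848 to 1.56%) and 0.547% (0.364 to 0.790%) with compound 4. It took 1.59% (1.23 to 2.01%) and 1.41% (1.09 to 1.79%) with compound 5, and 1.27% (0.924 to 1.69%) in compound 6 replicate 1. By the same interval, the 0 counts in DMSO allow a share of up to 0.138% and 0.119%, and the 0 in compound 6 replicate 2 of up to 0.0950%. These limits cover counting error only, and not how the quantification divided reads that fit both genes. The mean CPM of ITGB1P1 was 11.2 times a floor of 3 counts per DMSO library with compound 4 and 16.5 times with compound 5. These ratios describe estimated counts, bound no difference in transcription and are no evidence of one.

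**Figure D4:**
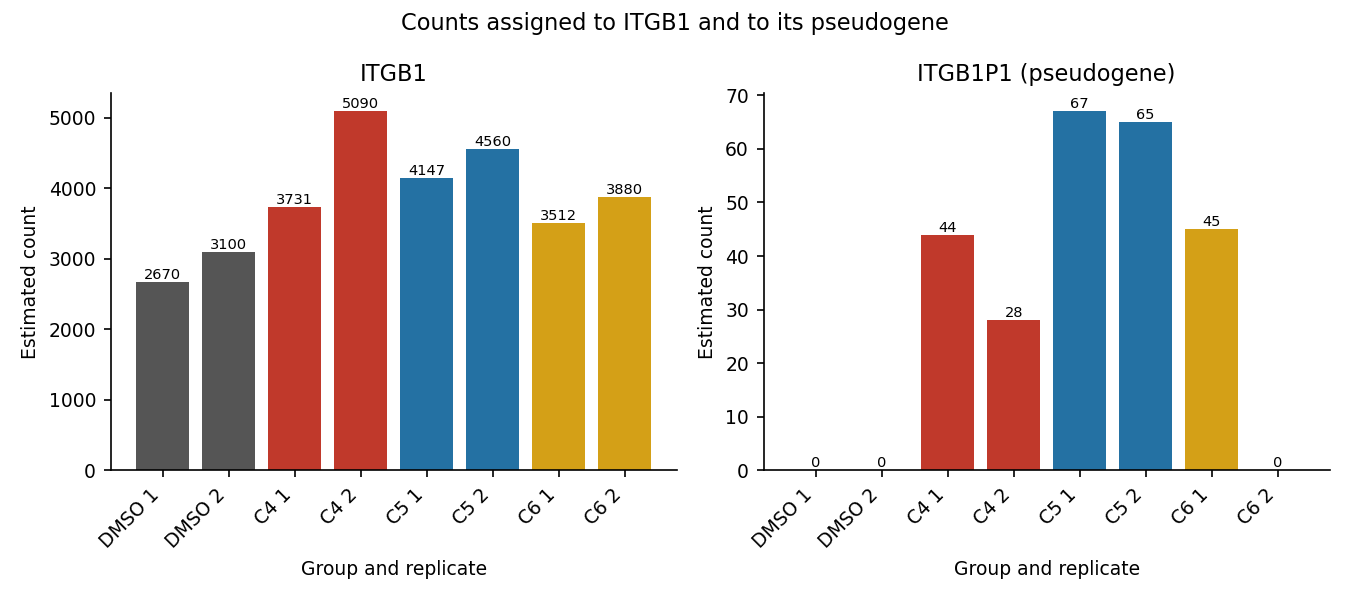
Estimated counts of ITGB1 (left) and ITGB1P1 (right) in each library. The y axes start at 0 and differ in scale, C4 to C6 are the compounds, and the last digit is the replicate. ITGB1P1 is at 0 in both DMSO libraries and in compound 6 replicate 2 and at 28 to 67 in the other 5, while ITGB1 lies between 2670 and 5090.

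ITGB1P1 counts were small beside those of ITGB1 in every library, and adding them to ITGB1 moved its values little. The summed gene had log2-fold changes of 0.48 ± 0.13 with compound 4, 0.19 ± 0.13 with compound 5 and 0.43 ± 0.13 with compound 6. Over the libraries the r of ITGB1P1 with ITGB1 was 0.33 on log2 CPM. Compound 6 replicate 2 had 368 CPM of ITGB1 and no pseudogene count, whereas compound 5 replicate 2, with 259 CPM of ITGB1, had 65. Whether the pseudogene was transcribed or received reads of ITGB1 was not tested. With identical sequences these counts cannot tell them apart.

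Promoter sequences are shown for ITGA2, the member with the widest range in CPM, and for ITGB1 and ITGB5, whose levels ran most closely together. Of the members, 7 matched an entry in the table of RefSeq promoters used here (GRCh38.p14): ITGA1, ITGA2, ITGA5, ITGA6, ITGAV, ITGB1 and ITGB5. ITGB1 and ITGB5 have further start sites downstream, and the window of the most upstream one is shown. The 250 bases before a start site are printed from 5′ to 3′ in the direction of transcription, and capitals mark GGGCGG, the core of an SP1 site, on either strand.
ITGA2 chr5:52989102-52989351 (plus strand): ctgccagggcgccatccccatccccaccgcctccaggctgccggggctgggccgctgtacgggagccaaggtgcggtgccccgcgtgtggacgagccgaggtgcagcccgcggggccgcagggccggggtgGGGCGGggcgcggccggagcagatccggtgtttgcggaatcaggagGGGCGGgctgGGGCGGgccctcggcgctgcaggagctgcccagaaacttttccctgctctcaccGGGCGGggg
ITGB1 chr10:32958231-32958480 (minus strand): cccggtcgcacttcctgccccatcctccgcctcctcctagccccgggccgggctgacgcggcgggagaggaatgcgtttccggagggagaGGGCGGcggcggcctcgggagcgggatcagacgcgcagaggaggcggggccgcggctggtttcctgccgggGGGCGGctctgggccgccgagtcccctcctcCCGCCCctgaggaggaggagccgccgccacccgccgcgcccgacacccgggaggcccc
ITGB5 chr3:124901419-124901668 (minus strand): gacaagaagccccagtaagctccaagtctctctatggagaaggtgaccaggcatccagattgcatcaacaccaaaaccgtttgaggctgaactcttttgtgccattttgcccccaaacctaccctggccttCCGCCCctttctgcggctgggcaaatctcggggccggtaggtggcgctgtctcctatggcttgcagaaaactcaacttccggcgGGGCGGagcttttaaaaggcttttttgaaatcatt
The ITGA2 window holds 4 such matches, the ITGB1 window 3 and the ITGB5 window 2, and 42.6% of 35116 promoter windows of this length hold at least 1. The ITGA2 and ITGB1 windows hold 26 and 32 CpG dinucleotides against a median of 11, and the ITGB5 window 9. The windows at other start sites differ: that of ITGB1 has 0 matches to GGGCGG and 4 CpG, and those of ITGB5 have 3 matches with 23 CpG and 0 matches with 19 CpG. TATAAA, found in 10.7% of all windows on either strand, is in none of the printed windows, but the other ITGB1 window holds 3 matches and 1 of the ITGA6 windows holds 1. No window of any member contains the AP-1 sequence TGANTCA, found in 6.57%. These are letter matches in a fixed window and say nothing of binding.

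The genes whose log2 CPM ran most like ITGA2 over the 8 libraries, among 9227 genes with a mean of at least 10 CPM, were EREG, an EGF-family growth factor (r = 0.987), CCDC91 (0.986) and SLC7A11, the cystine transporter (0.985). Those most like ITGB1 were CCNB1IP1 (0.978), ENPP1 (0.973) and XIAP, an inhibitor of apoptosis (0.971). They are the extremes of many genes over few libraries.

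The gene lists from here on were also chosen with earlier results of these data known. Their calls, adjusted p-values and medians are therefore a description and no independent support for the integrin values. Of 17 other subunits, 6 were at 0 in every library and 5 were tested. ITGA10, a further collagen-binding alpha chain, rose with compound 4 (log2-fold change 1.48 ± 0.30, adjusted p = 0.018) from 1.33 and 1.59 CPM in DMSO to 4.13 and 4.11 CPM. With compound 6 it stood at 3.73 and 3.98 CPM (1.39 ± 0.31, adjusted p = 0.067) and with compound 5 at 1.56 and 1.88 CPM (0.24 ± 0.32, adjusted p = 0.65). The leukocyte chain ITGAL had the lowest value with compound 5 (-2.10 ± 0.94, adjusted p = 0.18) and ITGAE with compound 6 (-0.52 ± 0.19, adjusted p = 0.20). ITGAL was near the low-count filter, with 10 and 6 counts in DMSO and 1 and 4 with compound 5.

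The ligands of these receptors moved both ways. The list counts can be read against all genes, of which 5.6% rose and 3.91% fell with compound 4, 5.35% and 2.95% with compound 5, and 0.493% and 0.0821% with compound 6. Of 7 laminin chains tested, LAMB2 rose (0.61 ± 0.12, adjusted p = 0.019) and LAMA5 fell (-0.47 ± 0.12, adjusted p = 0.038) with compound 4. LAMB1 rose (0.73 ± 0.14, adjusted p = 0.019) and LAMA5 fell (-0.86 ± 0.12, adjusted p = 0.0060) with compound 5. With compound 6 LAMB1 had 0.43 ± 0.14 and LAMA3 -0.22 ± 0.39, neither past the threshold. Of 19 collagens and other matrix ligands, 3 rose and 2 fell with compound 4, led by TGFB1, whose latent form is bound by ITGAV integrins (0.97 ± 0.20, adjusted p = 0.019), COL5A1 (0.56 ± 0.13, adjusted p = 0.031) and the fibrinogen chains FGG (-0.88 ± 0.12, adjusted p = 0.0053) and FGA (-0.62 ± 0.15, adjusted p = 0.032). With compound 5 FGB, another fibrinogen chain, rose (0.53 ± 0.12, adjusted p = 0.030) and HSPG2, the basement membrane proteoglycan perlecan, fell (-0.90 ± 0.18, adjusted p = 0.019). With compound 6 the values ran from 1.86 ± 0.83 for COL4A1 to -0.83 ± 0.46 for FBN1, neither past the threshold. COL4A1 had 3 and 2 counts in DMSO and 8 and 10 with compound 6. It passed the low-count filter through compound-treated libraries, so its value is no evidence of a difference.

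Inside the cell, the edgeR calls among the partners of integrin tails were all increases, in lists chosen with earlier results known. Of 28 focal adhesion adaptors and kinases tested, 8 rose with compound 4, 6 with compound 5 and 1 with compound 6. The median log2-fold changes of the list were 0.22, 0.28 and 0.16, against 0.01, 0.00 and 0.02 for all genes. ZYX, zyxin of the actin-bound side of focal adhesions, rose with all 3 compounds (0.97 ± 0.16, 0.99 ± 0.16 and 0.91 ± 0.16, adjusted p = 0.0097, 0.011 and 0.048). TNS4, a tensin that binds the ITGB1 tail, had the largest values. It stood at 1.13 and 0.502 CPM in DMSO and at 4.60 and 6.69 CPM with compound 4 (2.83 ± 0.54, adjusted p = 0.015). With compound 5 it stood at 9.80 and 4.67 CPM (3.16 ± 0.53, adjusted p = 0.012). TNS1 followed with compound 4 (1.60 ± 0.40, adjusted p = 0.035) and BCAR1, a docking protein for Src-family kinases, with compound 5 (1.19 ± 0.20, adjusted p = 0.012). TNS4 was near the low-count filter in DMSO and passed it with the help of compound-treated libraries. Its calls, which are among the 8 and the 6, are therefore not read as evidence of a difference.

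Among 13 activators and inhibitors, FLNA, the actin crosslinker filamin A that competes with talin for beta tails, rose with compound 4 (1.30 ± 0.16, adjusted p = 0.0039) and compound 5 (0.94 ± 0.16, adjusted p = 0.012). With compound 6 it had 0.88 ± 0.16 (adjusted p = 0.051), and RASSF5 had the lowest value, -0.58 ± 0.22. The hemidesmosome and tetraspanin list, with 10 genes tested, also holds other surface proteins, among them SLC3A2, the CD98 heavy chain that binds beta chains. SLC3A2 rose with compound 4 (1.24 ± 0.30, adjusted p = 0.033) and compound 5 (1.99 ± 0.31, adjusted p = 0.0093). The tetraspanin CD9 rose with compound 4 (0.95 ± 0.21, adjusted p = 0.024), where 4 of the 10 were called in all. With compound 6 the list ran from 0.92 ± 0.30 for SLC3A2 to -0.65 ± 0.28 for TSPAN8, neither past the threshold. Of 13 trafficking genes, PPFIA1 (0.57 ± 0.15, adjusted p = 0.045) and RAB35 (0.40 ± 0.10, adjusted p = 0.046) rose with compound 5. With compound 4 that list ran from 0.39 ± 0.15 for PPFIA1 to -0.20 ± 0.11 for RAB11FIP1, and with compound 6 from 0.31 ± 0.15 for PPFIA1 to -0.17 ± 0.16 for RAB4A.

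Over the 7 lists, 18 of 95 tested genes rose and 3 fell with compound 4, and 12 rose and 2 fell with compound 5. With compound 6, 1 rose and 31 had an unadjusted p under 0.05. DESeq2 called 10 with compound 6, of which 5 were higher and 5 lower. In order of compound, the median log2-fold changes were -0.43, -0.02 and -0.07 for the laminins, -0.03, 0.18 and 0.06 for the other ligands, and -0.26, -0.39 and -0.12 for the other subunits. They were -0.08, 0.01 and -0.10 for the activators, 0.57, 0.07 and 0.25 for the hemidesmosome and tetraspanin list, and 0.09, 0.13 and 0.11 for the trafficking list. Without DMSO replicate 2 none of these genes was called under any compound. Without DMSO replicate 1 the counts were 8, 0 and 0. Without compound 4 replicate 2 the compound 4 count was 2, without compound 5 replicate 1 the compound 5 count was 0, and the compound 6 count was 2 without its replicate 1 and 0 without its replicate 2.

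**Figure D5:**
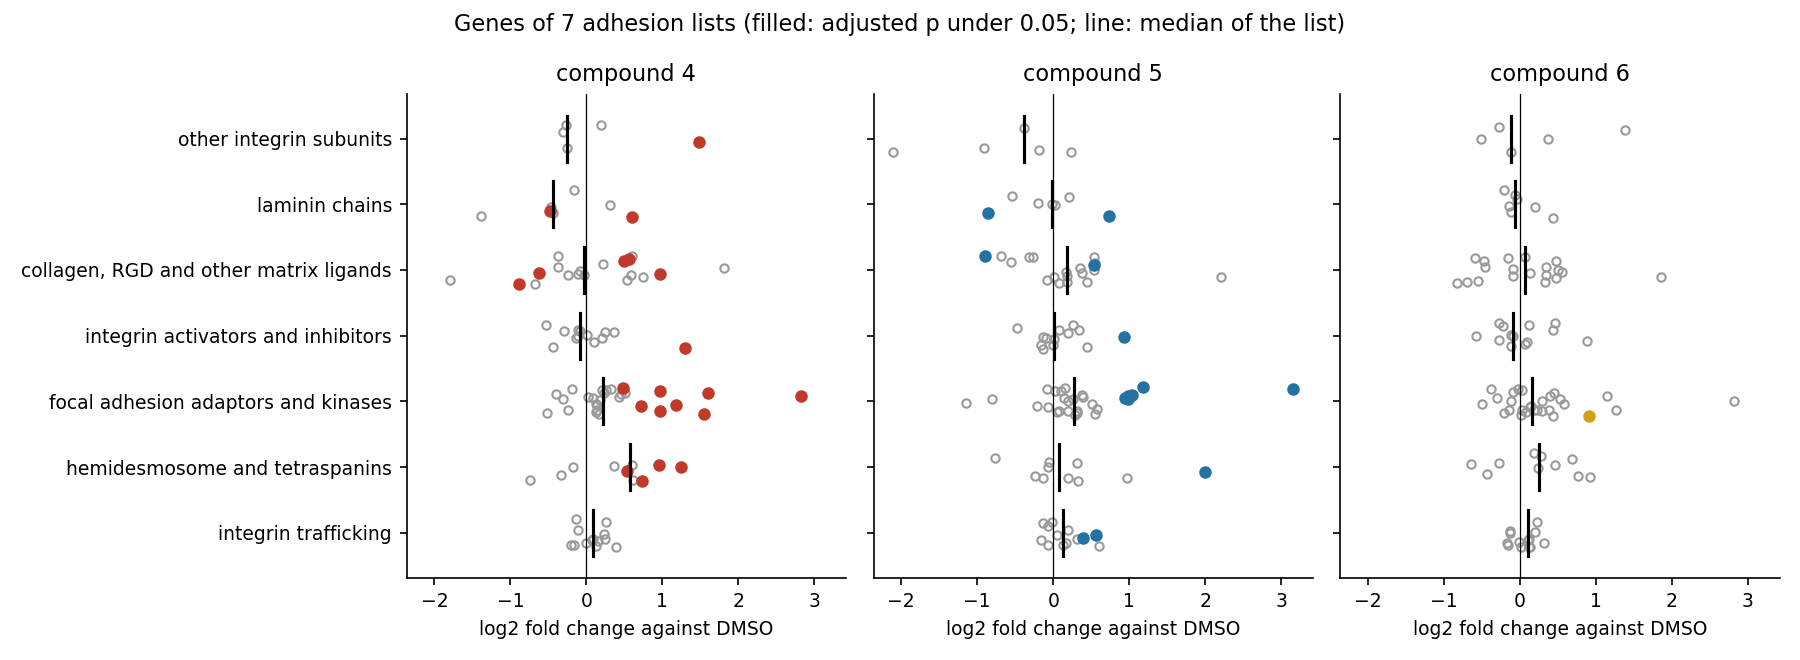
Log2-fold change against DMSO of 95 genes in 7 adhesion lists that do not contain the members. Each point is a gene, filled where its adjusted p is under 0.05 (edgeR, over 13400 genes), and the line is the median of the list. Filled points number 21 with compound 4, 14 with compound 5 and 1 with compound 6, and in the focal adhesion list all of them lie above 0.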

How the data were processed

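Paired-end mRNA libraries were made with a directional kit. The authors quantified reads with Salmon 1.5.0 on GENCODE 38 transcripts (GRCh38), summed them to genes with tximeta and deposited estimated counts without normalization as whole numbers. The table held 60230 genes, 23080 with at least 1 count, and no column of authors' comparisons was used. Salmon divides reads that fit several transcripts, and the strand setting is not given in the sources used here. Counts were analysed with edgeR 4.0.16 in R 4.3.3: TMM factors, a low-count filter (filterByExpr, minimum 10), and quasi-likelihood tests after fitting the 4 groups jointly, with Benjamini-Hochberg adjustment over 13400 genes. The coefficient of variation between replicates was 0.12, and no libraries were identical. Likeness used log2 of CPM plus 0.5. The labels' day number pairs the libraries, and replicate differences of 2 groups correlated at r = -0.16 to 0.30 over genes. Positions, lengths and window matches came from GENCODE 29, whose model can differ. The integrin genes and the pathway lists were chosen with earlier results of these data known. Named list genes are the 2 largest rises and falls past the threshold per list and compound, the highest and lowest where none passed, and any called under all 3. Alternatives were DESeq2 1.42.0, the replicate block, RLE factors, other filters, 4-library fits and leaving out each library. The script was tested on simulated data.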

Additional observations from a re-analysis of the deposited data

How the results depend on the processing

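No called member changed direction in 287 recomputed member values, of which 20 lost and 20 gained the threshold, while uncalled values near 0 could change sign, as for ITGA6 with compound 4 (-0.12 to 0.40). With the replicate block, 5 members were called with compound 4 in place of 3, and no other count of calls moved by over 1.5 times. Fitting only the 4 libraries compared gave 5 members with compound 4, and 4 members, 16 adhesion genes and 1023 genes with compound 6. Without a filter on low counts, 2383, 2431 and 1355 genes were called with compounds 4, 5 and 6, 32, 28 and 25 adhesion genes, and 6 members with compound 4 and 5 with compound 6. DESeq2 called 538 genes, 10 adhesion genes (5 higher and 5 lower) and 1 member with compound 6. With RLE factors the counts were 47 genes and 0 adhesion genes with compound 6 and 1 member with compound 5. With at least 10 counts in every library they were 198 genes and 4 adhesion genes with compound 6 and 1 member with compound 5, since ITGB1P1 drops out. Leaving out 1 library at a time gave 43 to 922, 46 to 1814 and 2 to 67 genes with compounds 4, 5 and 6, 0 to 16, 0 to 19 and 0 to 2 adhesion genes, and 0 to 2, 0 to 1 and 0 to 0 members, with the lowest values without DMSO replicate 2. The lone library is then assumed to vary like the other groups. The cause of these shifts was not tested. With 2 libraries a group and 9791659 to 17814595 counts, ITGA3 and ITGA5 were too low to test. Groups of 2 were too small to look for outlying libraries.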
